A study of Homo sapiens with 6 samples.

Results

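The cytosolic ribosomal protein genes were taken as every gene whose symbol in the merged count table is RPL or RPS and a number, alone or ending in A, X, L or L1, together with *RPLP0*, *RPLP1*, *RPLP2* and *RPSA*. The rule used names and no measured value. It gave 84 of 55859 gene symbols, 52 of them named for the large subunit of the ribosome and 32 for the small subunit. Of these, 83 had at least 10 reads summed over the libraries and were tested among 23343 genes, and 1, *RPL10L*, had no read in any library.

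The genes were measured by strand-specific total RNA-seq in HEK293 cells, a human embryonic kidney line. The sample labels give HEK293T, the variant of that line with the large T antigen of SV40. Both groups were stable lines in DMEM with fetal bovine serum, made with a pLKO.1 lentivirus and selected in neomycin. In 3 libraries the cells carried a nonspecific control hairpin (sh-control), and in 3 they carried a hairpin against the transcription factor gene *RREB1* (sh-*RREB1*). The sources used here give neither the number of separate lines nor separate cultures behind the replicates, so the p-values measure the spread between these libraries, which may be technical. The libraries had 12257054 to 33044061 reads on genes. Sh-*RREB1* replicate 3 had the fewest, and 52.1% of its aligned reads aligned to several positions, compared to 3.66% to 7.63% in the other libraries. It also had 3923750 reads on the strand opposite to genes, beside its 12257054 on the strand of the genes. The other libraries had 1207964 to 1718516 such opposite-strand reads, beside 23362197 to 33044061. Levels are given in CPM, reads per 1000000 reads on genes after TMM scaling, a correction for library composition. A log2 fold change is that of sh-*RREB1* over sh-control, tested by edgeR (quasi-likelihood), with p-values adjusted over all genes tested by the Benjamini-Hochberg method. *RREB1* itself stood at 27.1, 25.2 and 26.6 CPM with the control hairpin (replicates 1, 2 and 3) and at 23.7, 24.6 and 23.1 CPM under the sh-*RREB1* label. Its log2 fold change was −0.14 (SE 0.13, adjusted p = 0.485, edgeR) and −0.36 with an offset for GC content and gene length (adjusted p = 0.0534, edgeR). Neither passed, so the groups go by the labels they carry, and so does every direction given. The HEK293 line markers *VIM*, *NEFL*, *NEFM*, *KRT8*, *KRT18* and *LHX1* were present in every library, while *PAX2* was near 0. The 7 line markers summed to 427 to 494 CPM in sh-control and 716 to 834 CPM under the sh-*RREB1* label, where *VIM*, *NEFL* and *PAX2* passed an adjusted p of 0.05. Of 8 markers of other cell types, *PTPRC*, *HBB*, *HBA1* and *MYH6* had fewer than 10 reads in all, and the 8 summed to 1.57 to 2.46 CPM in sh-control and 1.51 to 3.93 CPM under the sh-*RREB1* label. *COL1A1* alone was higher, at 0.348, 0.405 and 0.685 CPM and 2.09, 2.64 and 0.951 CPM (adjusted p = 0.0132, edgeR). The part of these markers in the results was not tested. In bulk RNA, a change in the makeup of the cells and a change in RNA per cell cannot be told apart.

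Ribosomal proteins are assembled with ribosomal RNA into the small subunit, which decodes the mRNA, and the large subunit, which joins amino acids. Each ribosome carries 1 copy of nearly all of them, with the acidic stalk proteins P1 and P2, which recruit and activate translation factors, in more than 1 copy. Most of their mRNAs start with a C followed by a run of pyrimidines, the 5′ terminal oligopyrimidine (TOP) motif, through which mTOR signaling and *LARP1* control their translation together. HEK293 cells divide rapidly and make ribosomes at a high rate.

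The start sites of the genes that the results turn on are shown to let a reader see this motif. RefSeq start sites (GRCh38.p14) were in the table used here for 67 of the 84 genes, and 47 of those (70.1%) had at least one start whose first base is C followed by at least 4 bases that are C or T, compared to 5.14% of 27305 genes with a start in the table. Each line below gives 10 bases before the start and 20 bases from it, 5′ to 3′ on the strand of the gene, with the run of C and T from the start in capitals.
RPLP0 (chr12:120201092-120201121, minus strand): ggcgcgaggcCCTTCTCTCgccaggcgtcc
RPLP1 (chr15:69452808-69452837, plus strand): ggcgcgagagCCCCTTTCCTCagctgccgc
RPLP2 (chr11:809957-809986, plus strand): tcggcgccttCCTTTTCCTCCCTgtcgcca
RPL22 (chr1:6199576-6199605, minus strand): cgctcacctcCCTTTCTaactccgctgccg
RPL22L1 (chr3:170870176-170870205, minus strand): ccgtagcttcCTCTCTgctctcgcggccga
RPL35 (chr9:124861938-124861967, minus strand): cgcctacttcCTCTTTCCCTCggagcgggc
RPL36 (chr19:5690285-5690314, plus strand): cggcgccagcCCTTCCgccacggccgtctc
RPS16 (chr19:39435930-39435959, minus strand): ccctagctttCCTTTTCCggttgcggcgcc
RPS24 (chr10:78033853-78033882, plus strand): aatcgtggttCTCTTTTCCTCCTTggctgt
RPL39 (chrX:119791611-119791640, minus strand): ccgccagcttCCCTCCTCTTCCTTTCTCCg
RPL7L1 (chr6:42879606-42879635, plus strand): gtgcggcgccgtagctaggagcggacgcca
RPL9 (chr4:39458903-39458932, minus strand): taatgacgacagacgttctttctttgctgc
RPS28 (chr19:8321486-8321515, plus strand): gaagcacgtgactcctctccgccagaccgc
The stalk genes *RPLP0*, *RPLP1* and *RPLP2* had runs of 9, 11 and 13 bases, and both *RPL22* and its paralog *RPL22L1* had a run. *RPL39*, which had the longest run of the 67 genes, had 19. *RPL7L1*, *RPL9* and *RPS28* are shown as genes with no run at the RefSeq start, which says only that these letters do not begin at the listed base. The genes with a run had a median log2 fold change of −0.01 (47 genes) and those with a listed start but no run −0.04 (19 genes tested).

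As a family, the ribosomal protein genes took a similar share of the reads in both groups. They held 4.67%, 6.62% and 6.59% of the reads on genes in sh-control replicates 1, 2 and 3, and 5.23%, 6.82% and 5.95% under the sh-*RREB1* label. Replicate 1 was the lowest of its group in both groups, and the groups overlapped. The mean share was 5.96% ± 1.11 (SD, n = 3) in sh-control and 6.0% ± 0.797 (SD, n = 3) under the sh-*RREB1* label, so the difference was smaller than the spread between libraries.

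**Figure D1:**
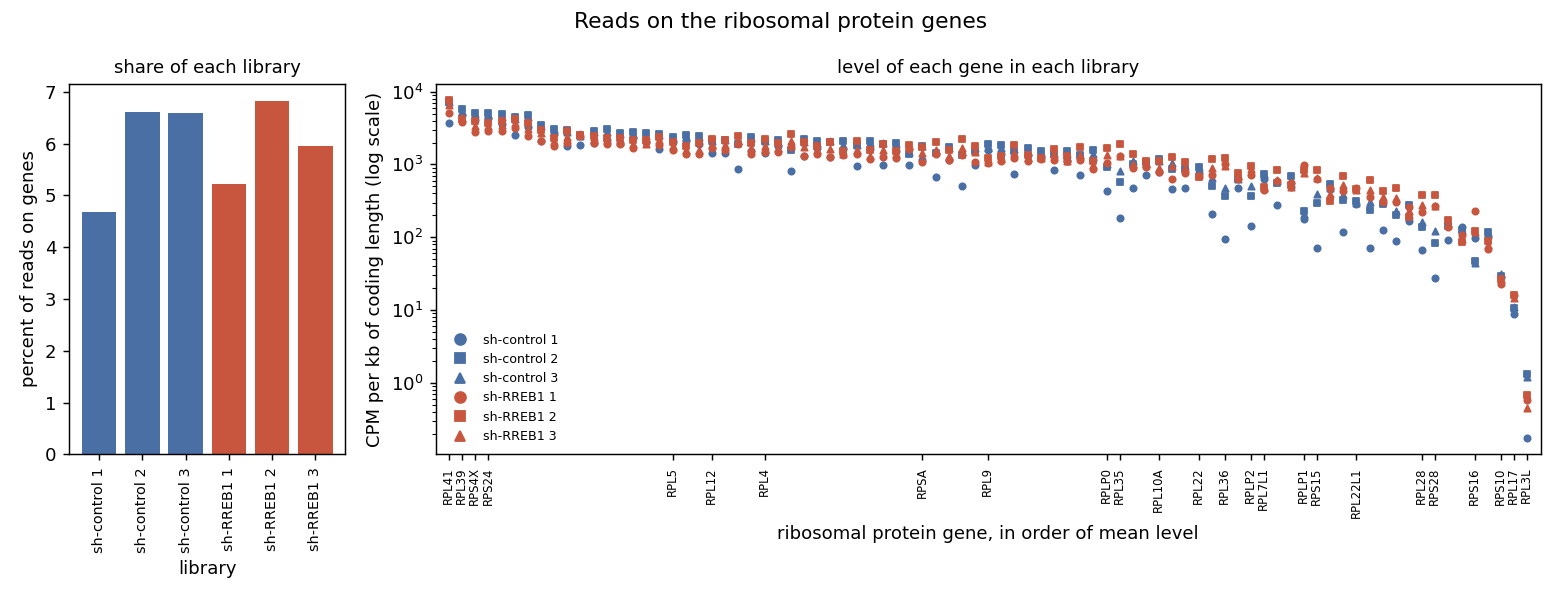
Left, percent of each library's reads on genes that lay on the ribosomal protein genes, 1 bar per library. Right, CPM per kb of coding length (log scale) of the 83 genes tested, 1 point per library, in order of the mean, with names for some of those in the text; sh-control is blue and sh-RREB1 red, and the share is lowest in replicate 1 of both groups.

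Levels were compared between genes per kb of coding length, since the annotated exons of several ribosomal protein genes include long alternative ends. Reads on the noncoding parts of exons stay in the count, so this measure raises genes with a short coding part. The coding length was 75 bases of a canonical transcript of 676 for *RPL41*, and 153 of 390 for *RPL39*. *RPL41*, which encodes the shortest ribosomal protein, stood first with 3744, 7112 and 7235 CPM per kb in sh-control and 5090.1, 7548 and 6541 CPM per kb under the sh-*RREB1* label. *RPL39*, a small protein of the exit tunnel, followed with 4769.7, 5809 and 5294 and 3831, 4239 and 4391 CPM per kb, and its libraries overlapped with those of *RPL41*. *RPS4X*, *RPS24* and *RPS27* came next, also with overlapping libraries. Compared within each library, *RPL39* was above each of these by this measure, and their own order changed between libraries. *RPL41* was below *RPL39* in sh-control replicate 1 and above it in the other libraries. With merged exons as the length, *RPS12*, *RPS4X*, *RPS6*, *RPS27* and *RPS18* led the order instead, at means of 5666, 4180.3, 3804, 3643 and 2624 TPM, so the order depended on the length used while *RPS4X* and *RPS27* were among the first 5 both ways.

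The 5 lowest genes per kb of coding length were *RPL3L*, *RPL17*, *RPS10*, *RPL39L* and *RPS16*. *RPS16*, a core protein whose exons overlap no other gene on its strand, was at 98.3, 47.1 and 44.9 CPM per kb in sh-control and 230.3, 122 and 117 CPM per kb under the sh-*RREB1* label. *RPL3L*, the striated muscle paralog of *RPL3*, had 5, 44 and 47 reads with sh-control and 18, 22 and 7 under the sh-*RREB1* label, or 0.217, 1.62 and 1.46 CPM and 0.725, 0.840 and 0.555 CPM. *RPL10L*, the testis-specific retrogene of *RPL10*, had 0 reads in all 6 libraries, where a count of 0 allows up to 0.0908 to 0.245 CPM in a library, for counting error only. *RPL17* (4.91, 5.99 and 6.04 CPM in sh-control) and *RPS10* (14.2, 14.4 and 15.7 CPM) were also low, although each is a core protein of every ribosome. In Gencode 44, 96.9% of the canonical exons of *RPL17* lie within exons of the readthrough gene *RPL17*-C18orf32 and 84.0% of those of *RPS10* within *RPS10*-NUDT3. The counting mode of STAR leaves out a read that overlaps more than one gene, so the levels of these genes are uncertain, as are those of *RPL26* (65.3% of its exons covered by another gene on the same strand) and *RPL36A* (43.8%).

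Processed pseudogenes are a second source of uncertainty, since STAR counts only reads with a single alignment. In a median of 46.9% of the 50-base windows of a member's coding sequence, the same 50 bases occurred in an annotated pseudogene, and in 38 of the 84 genes the share was above 50%. It was 100% in 8 genes (*RPL21*, *RPL36A*, *RPL39*, *RPL41*, *RPS10*, *RPS26*, *RPS27* and *RPS28*), 99.7% for *RPL7*, 90.5% for *RPL9*, 88.1% for *RPL22*, 65.5% for *RPLP0*, 37.2% for *RPLP1*, 15.7% for *RPS16*, 4.73% for *RPL22L1* and 0.338% for *RPLP2*. Among the 10 members higher and the 10 lower at an edgeR adjusted p of 0.05, 9 had a share above 50%. Reads on the 1586 pseudogene identifiers named for these genes amounted to 1.28 to 1.43 for every 100 reads on the genes themselves in each library. These reads were spread unevenly. The pseudogenes named for *RPS2* held 4536, 10514 and 11691 of them in sh-control and 7446, 11237 and 4263 under the sh-*RREB1* label. For *RPS28* alone, 58, 151 and 225 reads lay on its 5 named pseudogenes in sh-control, against 131, 467 and 808 on the gene, and 313, 434 and 179 under the sh-*RREB1* label, against 1374, 2037 and 703 on the gene.

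Between the groups, individual genes moved both ways around a median near 0. The median log2 fold change of the 83 genes was −0.06, beside 0.01 over all genes tested, with quartiles of −0.31 and 0.43 (−0.36 and 0.54 over all genes). There were 37 genes with a positive and 46 with a negative value. All 12 values beyond 1 in size were positive. With the offset for GC content and gene length 3 values were above 1, while *RPL10A* (−1.06) and *RPL3L* (−1.17) were below −1. Among the 52 genes with a mean of at least 500 CPM in sh-control, the values without the offset ran from −0.63 to 0.79. That cut used sh-control alone, so it leaves out genes that were low there and higher under the sh-*RREB1* label. For example, *RPL35*, at means of 194 and 553 CPM, and *RPL8*, at 347 and 717 CPM, had values of 1.51 and 1.05.

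A call needed an adjusted p under 0.01 from edgeR together with a log2 fold change of more than 1 in size. By that rule 1 ribosomal protein gene, *RPLP1*, was higher under the sh-*RREB1* label, where 2.71% of all genes tested were called higher, and 0 were lower, where 0.698% of all genes were. At an edgeR adjusted p below 0.05 with no minimum change, 10 of the 83 were higher (10.8% of all genes tested) and 10 were lower (8.81% of all genes tested). The shares of the family, 12% each way, were near those of all genes. By subunit, 8 of the 51 large subunit genes tested were higher and 5 were lower, and 2 of the 32 small subunit genes were higher and 5 were lower. The libraries of the groups did not overlap in 17 genes with higher values (20.5%, beside 21.1% of all genes tested) and in 19 with lower values (22.9%, beside 20%).

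**Figure D2:**
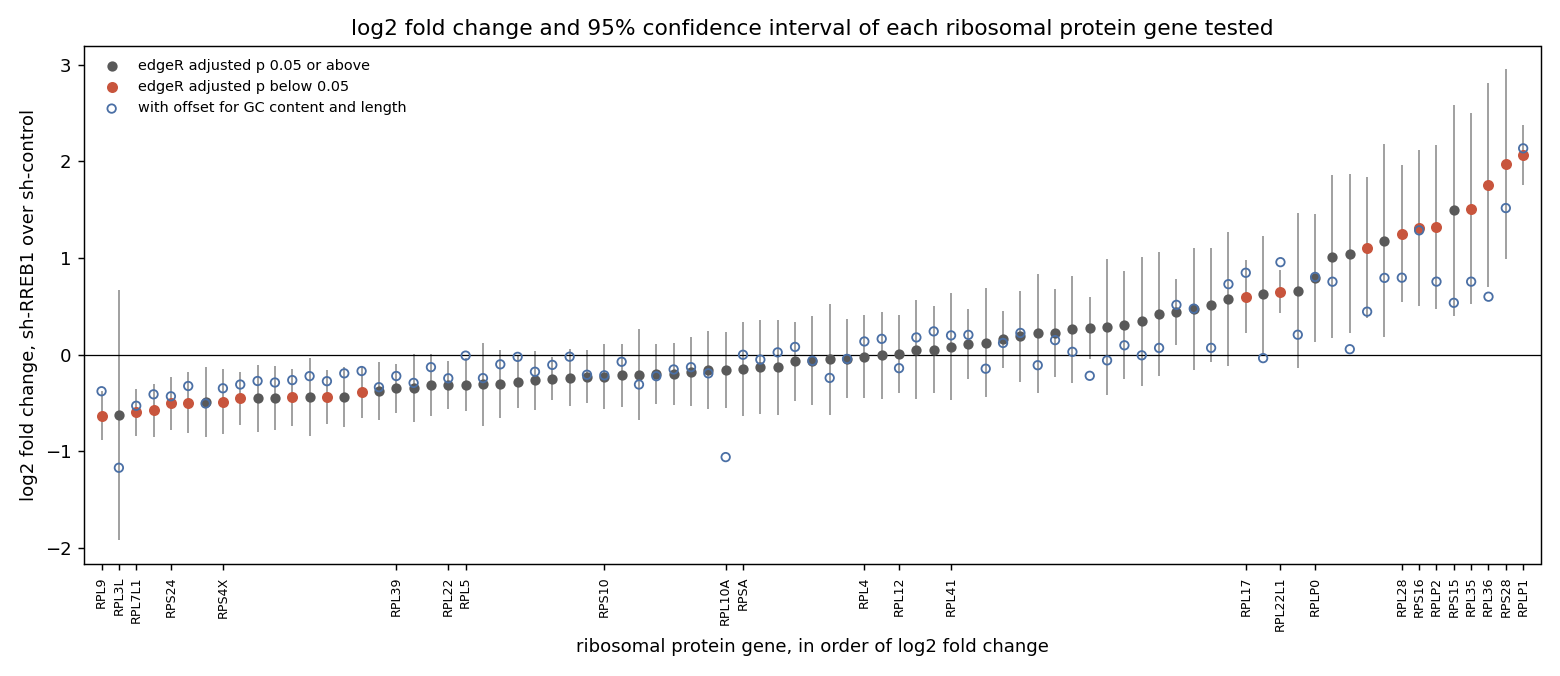
log2 fold change of sh-RREB1 over sh-control for the 83 ribosomal protein genes tested, in order and with names for some of those in the text, with 95% confidence intervals from edgeR (grey lines) and the values after an offset for GC content and gene length (open blue circles). Red points are the 20 genes past an edgeR adjusted p of 0.05, RPLP1 stands at the right end at 2.07, and no value without the offset lies below −0.63.

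The stalk genes were the group in which the largest difference fell. The stalk is an arm of the large subunit in which P0, encoded by *RPLP0*, holds pairs of P1 and P2. *RPLP1* (ENSG00000137818, chromosome 15 from 69452814 to 69456205 of GRCh38) was at 61.0, 77.9 and 71.4 CPM with sh-control and at 333, 288 and 259.7 CPM under the sh-*RREB1* label. The lowest sh-*RREB1*-labelled library lay far above the highest sh-control library. The means were 70.1 ± 8.49 CPM and 294 ± 37.0 CPM (SD, n = 3), a 4.19-fold difference. The log2 fold change of *RPLP1* was 2.07 (SE 0.14, 95% confidence interval 1.75 to 2.38, adjusted p = 0.000464, edgeR). With one library left out at a time, in 6 fits, it stayed at 1.94 to 2.15, and *RPLP1* was called in all 6. With an offset for GC content and gene length it was 2.14 (adjusted p = 2.67e-06, edgeR).

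*RPLP2* encodes the partner of P1. It was at 48.7, 127 and 174 CPM with sh-control and 245, 332 and 303 CPM under the sh-*RREB1* label, without overlap, and sh-control replicate 1 was far below the other sh-control libraries. The log2 fold change was 1.33 (SE 0.37, adjusted p = 0.0384, edgeR), and it was 0.92 without sh-control replicate 1 (adjusted p = 0.00471, edgeR) and 0.76 with the offset. *RPLP0* was at 417, 878 and 961 CPM and 1000.1, 1621 and 1293 CPM, again without overlap. Its log2 fold change of 0.79 (SE 0.29) did not pass (adjusted p = 0.0908, edgeR), but with the offset it was 0.80 and passed an adjusted p of 0.05 (adjusted p = 0.0245, edgeR). *RPL12*, which binds beside P0 at the base of the stalk, differed little, at 707, 1074 and 1047 CPM and 822, 1112 and 914 CPM, a log2 fold change of 0.01 (95% confidence interval −0.39 to 0.41). Whether the stalk genes differed from one another in their change was not tested.

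**Figure D3:**
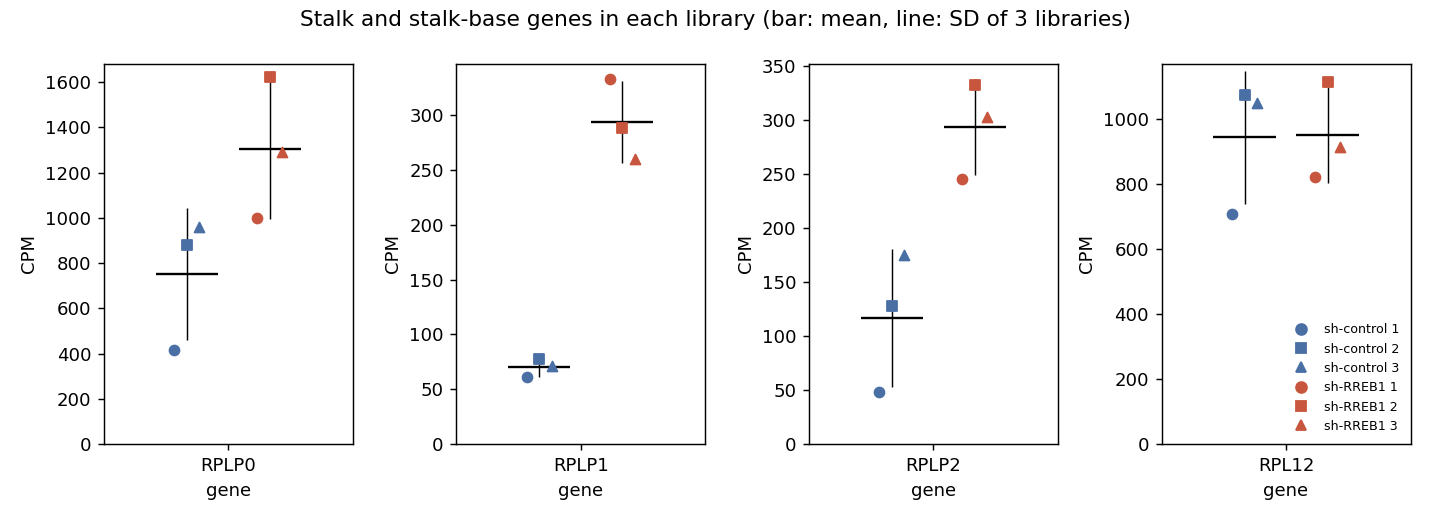
CPM of RPLP0, RPLP1, RPLP2 and RPL12 in each library, with sh-control in blue and sh-RREB1 in red, symbols for the replicates, a bar at the mean and a line for the SD of 3 libraries (each y axis starts at 0). RPLP1 lies at 61.0 to 77.9 CPM in sh-control and 259.7 to 333 CPM in sh-RREB1, while the groups overlap for RPL12.

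*RPL22L1* encodes a paralog of *RPL22*, an RNA-binding protein of the large subunit that ribosomes can lack, and *RPL22* is known to repress *RPL22L1* in mammalian cells. *RPL22L1* (ENSG00000163584, chromosome 3 from 170864875 to 170870208) was at 104, 115 and 108 CPM with sh-control and 176, 171 and 165 CPM under the sh-*RREB1* label. The libraries within each group lay close together and the groups were well apart. This was a log2 fold change of 0.65 (SE 0.10, adjusted p = 0.00515, edgeR), below the minimum change for a call, and it was 0.96 with the offset (adjusted p = 0.000118, edgeR). It passed an adjusted p of 0.05 in each of the 25 fits run, at 0.56 to 1.01. *RPL22* (chromosome 1 from 6185020 to 6209389) was at 294, 355 and 349.9 CPM and 264, 262 and 278 CPM, lower in every sh-*RREB1*-labelled library. Its log2 fold change of −0.31 (SE 0.11) did not pass an adjusted p of 0.05 (adjusted p = 0.0735, edgeR).

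Within the pair, *RPL22L1* took 26.1%, 24.5% and 23.5% of the reads with sh-control and 40.0%, 39.5% and 37.3% under the sh-*RREB1* label. The mean share rose from 24.7% ± 1.29 to 38.9% ± 1.44 (SD, n = 3), and these shares do not depend on the scaling of the libraries. They rest on reads with a single alignment, and 88.1% of the coding windows of *RPL22* but 4.73% of those of *RPL22L1* also occur in pseudogenes. The other paralog pairs overlapped between groups. *RPL7L1* took 22% to 24.5% of the reads of *RPL7* and *RPL7L1* in the 6 libraries, with both genes lower under the sh-*RREB1* label. *RPL26L1* took 34.1% to 47.7% of its pair, *RPS27L* 7.37% to 14.5%, *RPL39L* 1.73% to 2.12% and *RPL3L* 0.0389% to 0.155%. *RPL36AL*, which the name rule does not take, held 79.9% to 85.6% of the reads of its pair with *RPL36A*, part of whose exons are covered by another gene.

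**Figure D4:**
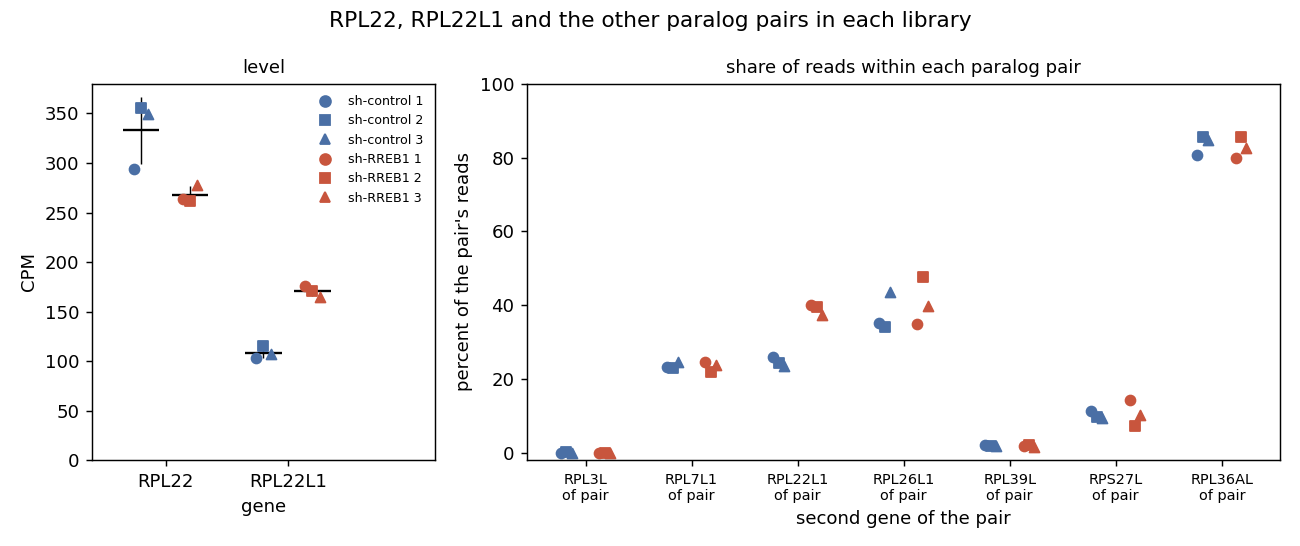
Left, CPM of RPL22 and RPL22L1 in each library with mean (bar) and SD (line, 3 libraries). Right, percent of the reads of each paralog pair that lay on its second gene, 1 point per library; RPL22L1 is the pair whose groups do not overlap, at 23.5% to 26.1% in sh-control and 37.3% to 40.0% in sh-RREB1.

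Others that were higher at an adjusted p of 0.05 included *RPS28*, *RPL36*, *RPL35*, *RPS16*, *RPL28* and *RPL17*. *RPS28*, a small subunit protein near the mRNA exit, was at 5.70, 17.2 and 25.2 CPM with sh-control and 55.3, 77.8 and 55.7 CPM under the sh-*RREB1* label, with a log2 fold change of 1.97 (SE 0.43, adjusted p = 0.0165, edgeR). With the offset it was 1.52 and called (adjusted p = 0.00127, edgeR). As its coding sequence is shared in full with pseudogenes, its level is uncertain. *RPL36* was at 29.6, 115 and 152 CPM and 317, 388 and 301 CPM, a log2 fold change of 1.76 (adjusted p = 0.0311, edgeR) that was 0.60 with the offset. *RPL35*, at the rim of the exit tunnel, was at 68.4, 212 and 301 CPM and 479.9, 696 and 482 CPM, with 1.51 (adjusted p = 0.0412, edgeR) and 0.76 with the offset. In each of these genes the groups did not overlap, and sh-control replicate 1 was less than 0.5 times each of the other sh-control libraries.

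*RPS16*, whose tail reaches the decoding site of the small subunit, had another pattern. It was at 43.0, 20.6 and 19.7 CPM with sh-control and 101, 53.4 and 51.4 CPM under the sh-*RREB1* label, so replicate 1 was the highest library of both groups. *RPS16* was 1 of only 2 members in which sh-control replicate 1 was above both other sh-control libraries, and the log2 fold change was 1.31 (adjusted p = 0.0339, edgeR), 1.29 with the offset and 1.74 without sh-control replicate 1. *RPL28* had a log2 fold change of 1.25 (adjusted p = 0.0250, edgeR), which was 0.80 with the offset. *RPL17*, another protein of the exit tunnel, had 0.60 (adjusted p = 0.0375, edgeR). It had 113, 163 and 194 reads with sh-control and 219, 231 and 102 under the sh-*RREB1* label. Of the coding windows of *RPL17*, 90.1% also occur in pseudogenes. The pseudogenes named for it held 296, 302 and 351 reads with sh-control and 237, 247 and 112 under the sh-*RREB1* label. In every library this was more than on the gene, and these reads were fewer where those on the gene were relatively more. Whether the difference of *RPL17* holds with these reads added was not tested. All 10 of the higher genes also passed with the offset, and all 10 passed without sh-control replicate 1.

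The genes that were lower at an adjusted p of 0.05 were *RPL9*, *RPL7L1*, *RPL7*, *RPS24*, *RPL24*, *RPS4X*, *RPS27A*, *RPS23*, *RPL35A* and *RPS3A*. Their log2 fold changes were small, from −0.63 to −0.39, and in all 10 the groups did not overlap. *RPL9* (chromosome 4 from 39452587 to 39458931), a large subunit protein near the stalk, was at 923, 1084 and 978 CPM with sh-control and 601, 711 and 613 CPM under the sh-*RREB1* label. The change on the log2 scale was −0.63 (SE 0.11, adjusted p = 0.00826, edgeR), and −0.38 with the offset (adjusted p = 0.0557, edgeR). *RPL7L1*, a paralog of *RPL7*, was at 489, 575 and 565 CPM and 337, 370.4 and 368 CPM, a log2 fold change of −0.60 (SE 0.11, adjusted p = 0.00794, edgeR). It passed an adjusted p of 0.05 in each of the 25 fits, at −0.70 to −0.48.

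*RPL7* itself, among the most abundant members by reads, was at 1622, 1914 and 1736 CPM and 1039.7, 1315 and 1180.0 CPM, a log2 fold change of −0.58 (adjusted p = 0.0136, edgeR). *RPS24* was at 1671, 1989 and 1837 CPM and 1134, 1444 and 1298 CPM, with −0.50 (adjusted p = 0.0229, edgeR). Both kept an adjusted p below 0.05 with the offset, as did *RPL7L1* and *RPS27A*, which encodes a ribosomal protein fused to ubiquitin (−0.45, adjusted p = 0.0309, edgeR, and −0.31 with the offset). The other 6 did not. *RPL24* had a log2 fold change of −0.50 (adjusted p = 0.0365, edgeR), *RPS4X* of −0.49 (0.0497), *RPS23*, at the decoding centre, of −0.44 (0.0439), *RPL35A* of −0.44 (0.0397) and *RPS3A* of −0.39 (0.0463), the values in brackets being edgeR adjusted p.

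GC content moved with these differences. The 10 higher genes had a median GC content of 56.2% in their exons and the 10 lower genes 45.0%, beside 48.1% over the 83 genes and 47.1% over all genes tested. In the 28 most GC-poor genes (39.8% to 45.4%), 6 had a positive log2 fold change and the median was −0.26. In the 28 most GC-rich (50.5% to 64.6%), 23 had a positive value and the median was 0.38. Across the 83 genes the log2 fold change followed GC content with a Spearman's rho of 0.56, and of 0.18 with the offset. These genes share the 6 libraries and are not independent, so the correlation is a description.

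The sh-control libraries differed among themselves along the same axis. In 81 of the 83 genes sh-control replicate 1 was below both other sh-control libraries, by a median of 0.55 on the log2 scale over all 83, and this deviation followed GC content with a rho of −0.67. In 71 genes sh-*RREB1* replicate 1 was the lowest of its group. The counts depended on single libraries. Without sh-*RREB1* replicate 3, the library with most multiply aligned reads, 2 members were higher at an adjusted p of 0.05 (*RPLP1* and *RPL22L1*, beside 4.44% of all genes tested in that fit) and 1 was lower (*RPL7L1*, beside 2.21%). Without sh-control replicate 1, 14 members were higher at an adjusted p of 0.05 (11.8% of all genes tested in that fit) and 31 were lower (10.3%), and the median of the members was −0.29. With the offset for GC content and gene length, 13 were higher (10.4%) and 7 were lower (11.7%). By the rule with a minimum change, the offset gave 2 higher, *RPLP1* and *RPS28* (1.82% of all genes), and 1 lower, *RPL10A* (1.20%).

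**Figure D5:**
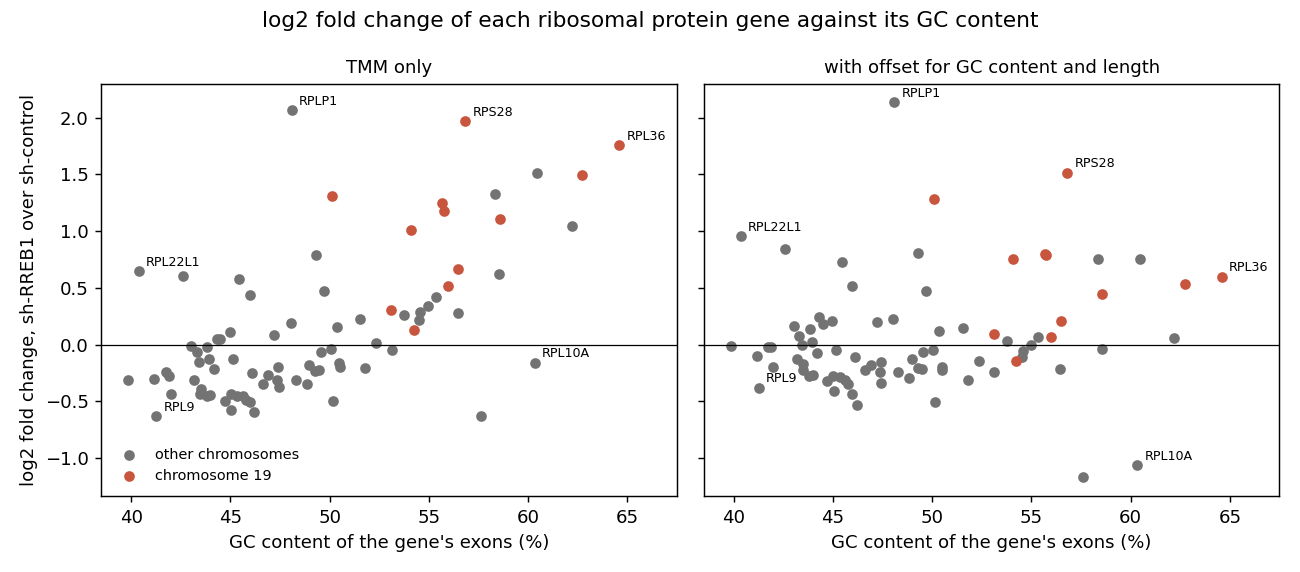
log2 fold change of sh-RREB1 over sh-control of the 83 ribosomal protein genes against the GC content of their exons in percent, with TMM scaling only (left) and with the offset for GC content and gene length (right). Genes of chromosome 19 are red, the rise with GC content on the left (rho 0.56) is weaker on the right (rho 0.18), and RPLP1 stands at the top of both panels.

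*RPL10A*, a large subunit protein of high GC content (60.3%), was called with the offset and far from a call without it. It was at 519, 766 and 735 CPM with sh-control and 518, 715 and 577 CPM under the sh-*RREB1* label, with overlap. Its log2 fold change was −0.16 (adjusted p = 0.569, edgeR), and −1.06 with the offset (adjusted p = 0.000170, edgeR). *RPL15* passed an adjusted p of 0.05 with the offset and not with TMM scaling alone, at 0.52, as did *RPL27A* and *RPL39L* in the other direction, at −0.34 and −0.51.

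Chromosome 19 carries 12 of the 83 genes, more GC-rich than most, at 50.1% to 64.6%. All 12 had a positive log2 fold change, the highest being 1.97 for *RPS28*, compared to 25 of the 71 genes on other chromosomes, and 5 of them passed an adjusted p of 0.05. With the offset 11 of the 12 were positive, and the median of the 12 fell from 1.14 to 0.57. *RPS15*, which lies in the small subunit near the decoding site, showed the spread behind these values, at 31.1, 127 and 171 CPM with sh-control and 275, 371 and 282 CPM under the sh-*RREB1* label. Its log2 fold change of 1.49 did not pass (adjusted p = 0.0599, edgeR). *RPS19*, a gene mutated in Diamond-Blackfan anemia, was at 219, 588 and 636 CPM and 579, 972 and 734 CPM, with overlap.

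Of the 83 genes, 63 did not pass an adjusted p of 0.05, 27 with a positive and 36 with a negative value. *RPSA*, which encodes the small subunit protein also described as a laminin receptor, was at 1005, 1596 and 1587 CPM and 964, 1547 and 1265 CPM, a log2 fold change of −0.15 (95% confidence interval −0.64 to 0.34, adjusted p = 0.677, edgeR). *RPS6*, the substrate of the S6 kinases, was at 2444, 3519 and 3323 CPM and 1854, 2727 and 2270.0 CPM, with −0.44 (−0.84 to −0.04). *RPL5* and *RPL11*, which bind 5S ribosomal RNA and can together inhibit MDM2, had log2 fold changes of −0.31 (−0.58 to −0.04) and −0.31 (−0.74 to 0.12). In 10 genes the log2 fold change was below 0.1 in size. They were *RPL4*, *RPL7A*, *RPL12*, *RPL26*, *RPL27*, *RPL32*, *RPL37*, *RPL37A*, *RPL41* and *RPS3*. For *RPL4* the 95% confidence interval was −0.45 to 0.41 and for *RPL41* −0.47 to 0.64, so both intervals cover changes in either direction.

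Genes outside the name rule that work with these were read from the same fit, beside the same shares of all genes. Of 4 other genes for ribosomal proteins, *RPL36AL* was lower at an adjusted p of 0.05 (−0.53, adjusted p = 0.0225, edgeR) and none was higher. With the offset *RPL36AL* did not pass (−0.25, adjusted p = 0.235, edgeR) and 1 gene, *FAU*, was higher. *FAU*, whose product is a fusion that gives the small subunit protein eS30, was at 41.1, 85.5 and 85.6 CPM and 108, 148 and 121 CPM and did not pass without the offset (log2 fold change 0.83, adjusted p = 0.0559, edgeR), while with it the value was 0.63 (adjusted p = 0.0106, edgeR). Of 17 other genes known for TOP mRNAs 16 were tested, 3 were higher (*EEF1D*, *EEF2* and *VIM*, also a line marker) and 4 were lower (*EIF3E*, *EIF4A2*, *EIF4B* and *TPT1*), and the median was −0.14, where 10.8% of all genes tested were higher and 8.81% were lower. With the offset 3 were higher and 1, *TPT1*, was lower, the median was 0.10, and the shares of all genes were 10.4% and 11.7%. *EEF1D* and *EEF2*, of the elongation machinery, had log2 fold changes of 1.47 and 1.35 (adjusted p of 0.0280 and 0.0130, edgeR), which were 0.45 and 0.57 with the offset. *TPT1*, a TOP mRNA gene of high expression, had −0.64 (adjusted p = 0.00947, edgeR) and −0.51 with the offset.

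Among 61 ribosome biogenesis factors, 6 were higher and 7 were lower at an adjusted p of 0.05, with a median of −0.06, and 2 were called higher, *RRP12* (1.46, adjusted p = 0.00725, edgeR) and *RRS1* (1.06, adjusted p = 0.00691, edgeR). Beside this and the following lists, 10.8% of all genes tested were higher, 8.81% were lower and 2.71% were called higher. *RRP12* serves in the export of pre-ribosomes and *RRS1* in assembly of the 5S ribonucleoprotein. With the offset 12 were higher and 4 were lower at an adjusted p of 0.05, and 0 were called, *RRP12* being at 0.91 and *RRS1* at 0.60, below the minimum change. The shares of all genes with the offset were 10.4% higher, 11.7% lower and 1.82% called higher. Of 15 genes of RNA polymerase I and its factors tested, which transcribe ribosomal RNA, 2 were higher and 1 was lower (3 and 1 with the offset). Of 31 translation initiation factors and regulators, 3 were higher (*EIF4EBP2*, *EIF4G1* and *LARP1*) and 3 were lower (*EIF2S2*, *EIF4G3* and *EIF5B*), with a median of −0.11. With the offset 4 were higher and 5 were lower, and *EIF4G1* and *EIF2S2* did not pass. *LARP1*, the TOP mRNA-binding protein, was at 164, 159 and 174 CPM with sh-control and 204, 276 and 237 CPM under the sh-*RREB1* label, a log2 fold change of 0.53 (adjusted p = 0.0221, edgeR) that was 0.34 with the offset.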

How the data were processed

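RNA-seq counts of 6 libraries were used. The authors aligned the reads with STAR to hg38 and a Gencode annotation and deposited raw read counts per gene on each strand, without normalization, and a merged table of the same counts. Here the same-strand counts were taken. The first lines of each table, which hold reads not assigned to a single gene, were left out. Of the uniquely aligned reads, 29.8% to 44.7% had no gene on that strand or overlapped several genes. Where several identifiers had one symbol, that with most reads was kept. Genes with at least 10 reads in total were fitted with edgeR 4.0.16 in R 4.3.3 (quasi-likelihood test, TMM, hairpin label as the sole term). Calls needed an adjusted p under 0.01 with a log2 fold change over 1 in size, and the second threshold was 0.05 with no minimum change. The offset for GC content and gene length was a natural spline of 5 degrees of freedom per library. GC content, lengths, overlaps and pseudogenes came from Gencode 44. TPM was computed from merged exon lengths.

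The fits were tested on simulated counts. The named genes are *RREB1*, the stalk genes and *RPSA*, the members past either threshold, the 5 highest and 5 lowest by log2 fold change and by TPM, the paralog pairs, members under 10 reads, and up to 5 genes each way of the other lists. Others were chosen after their values were seen, and some genes that the rule takes are not reported here. The members and lists were chosen with earlier results of these data known. Alternatives were DESeq2 1.42.0, other scalings, filters, strands, tables and thresholds, the offset, the replicate number as a block and each library left out. The offset with each library left out, and coding length, were chosen after seeing the data. Libraries differed by more than sampling noise (chi-square per degree of freedom of at least 5.16 between any pair) and were counted separately. Precision was limited by the depth of 12257054 reads on genes in the shallowest library and by 3 libraries per group.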

Additional observations from a re-analysis of the deposited data

Results flagged for a closer look

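Reads on the strand opposite to the ribosomal protein genes were not part of the counts used for any comparison. They made up 0.196%, 0.20% and 0.190% of the reads on these genes under the sh-*RREB1* label, replicates 1, 2 and 3, above the 0.143%, 0.159% and 0.148% of the sh-control libraries. The genes *RPL10*, *RPS28* and *RPS29*, chosen after their values were seen, held 25.6% to 30% of these opposite-strand reads under the sh-*RREB1* label and 11.2% to 19.4% in sh-control. Without them the share was 0.14% to 0.145% under the sh-*RREB1* label and 0.122% to 0.137% in sh-control. On *RPS28* the opposite strand held 9.03%, 12.2% and 13.3% of the reads with sh-control and 9.96%, 11.3% and 7.86% under the sh-*RREB1* label. On *RPL10* it held 1.15%, 1.21% and 1.14% and then 2.21%, 1.93% and 1.93%. On *RPS29* it held 0.653%, 0.637% and 1.01% and then 2.27%, 1.80% and 1.71%. Some genes went the other way. On *RPL28* the opposite strand held 8.17%, 6.10% and 5.47% with sh-control and 2.83%, 1.79% and 2.08% under the sh-*RREB1* label. On *RPLP1* it held 0.777%, 0.843% and 0.607% and then 0.109%, 0.172% and 0.274%. The share over all these genes differed between the groups by a small fraction of the reads, and its source was not tested.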

How the results depend on the processing

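The median log2 fold change of the members was between −0.15 and 0.02 under the alternatives that kept all libraries and −0.29 to 0.03 with each library left out, and the difference in their share of reads was −0.32 to 0.05 and −0.61 to 0.42 percentage points (0.04 with all reads as reported). Both thus took either sign. *RPLP1* was called in all 25 fits. The count called higher, 1, was 7 with DESeq2, 12 with no filter, 2 with the offset, 12 with the replicate block, 3 with the block and the offset, and 2 with no minimum fold change. It was 1 to 6 with a library left out, 6 being without sh-control replicate 1, and 2 to 3 when the offset was added. The count called lower, 0, was 1 with the offset and with the block and offset, 2 with no minimum fold change, and 0 to 0 with a library left out (1 to 1 with the offset). The count higher at 0.05, 10, was 14 with DESeq2, 16 with no filter, 21 with the block, 18 with the block and offset, and 2 to 14 with a library left out (6 to 15 with the offset). It was 2 when sh-control library 2 or sh-*RREB1* library 2 or 3 was left out, and 4 when it was sh-*RREB1* library 1. The count lower, 10, was 15 with DESeq2, 15 with no filter, 14 with the merged table and 21 with upper-quartile scaling. It was 6 with library totals only, 6 with filterByExpr, 4 with both strands together, 22 with the block, 22 with the block and offset, and 1 to 31 with a library left out (3 to 26 with the offset). Leaving out sh-control library 1, 2 or 3 gave 31, 2 and 5, and leaving out sh-*RREB1* library 1 or 3 gave 4 and 1. The causes were not tested. Shares of all genes are given above for the main fit and the offset. For the fits without sh-control replicate 1 or without sh-*RREB1* replicate 3 they are given at 0.05 only. For the other fits such shares were not counted, so these counts do not set the ribosomal protein genes apart from all genes. Of 672 values for 28 named genes, 473 kept their side of the threshold, 59 passed it newly, 140 no longer passed and 0 changed direction. The other 11 named genes were in the same fits, but only their size and sign were followed. Of their 264 values 27 had the other sign, in 6 genes (*RPL3*, *RPL10*, *RPL26*, *RPL26L1*, *RPS27L* and *RPSA*). The 0 thus holds for the 28 genes only. Deviations of libraries with the same replicate number correlated at 0.50, 0.43 and −0.28, and not every library correlated best with its own number, so the block was not taken as a pairing of the samples.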
